A study of Mus musculus with 15 samples.

Results

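Regulatory T cells (Tregs) sorted from tissue are usually read for their own genes. Described here are instead 35 marker genes that textbooks assign to the other cells of skin and lymph node. They were taken by name from a count table of 24015 genes and followed through all 15 libraries. Their list was drawn up with earlier results of these data known, so the calls below describe these genes and are no independent test of them. They comprise 8 genes of keratinocytes, 5 of fibroblasts, 2 of endothelium, 6 of macrophages and monocytes, 2 of Langerhans and dendritic cells, 4 of the major histocompatibility complex (MHC) class II pathway, 4 of mast cells and 4 of B cells. RNA from a sorted pool does not show which cell held a transcript, and several of these genes can also be transcribed by T cells, so the source of each was not tested. In such bulk RNA, fewer cells of a type and less RNA per cell cannot be told apart.

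Basal keratinocytes fill themselves with keratins and hold together through desmosomes, while dermal fibroblasts lay down collagen and the proteoglycan decorin. Tissue macrophages and mast cells carry large stores of transcripts for complement C1q and granule proteases respectively. Dendritic cells and B cells present peptide on MHC class II molecules, which mouse T cells largely do not make.

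Every library came from a CD45+CD3+CD4+YFP+ sort of C57BL/6 mice that carry Foxp3 cre-eyfp, an allele through which the Treg gene Foxp3 drives Cre and a yellow fluorescent protein. That allele was present in every group, wild-type (WT) included. Each of 5 groups had 3 libraries. WT Tregs came from axillary, skin-draining lymph nodes (LN), from untreated dorsal skin with ears, and from ears painted with MC903 in ethanol every other day for 4 applications. Tregs of Foxp3 cre-eyfp Rora fl/fl mice (cKO), in which Cre removes floxed Rora from Foxp3-expressing cells, came from the same untreated sites and from ears given the same MC903 course. MC903 is calcipotriol, a vitamin D analogue used to provoke skin inflammation. Treatment therefore changed together with body site, and tissue together with preparation, because skin was digested for 90 minutes with Liberase TL and DNase whereas no digestion is stated for LN. The titles call the samples biological replicates without naming animals or pooling, so p-values measure the spread between these samples only.

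Library totals were 19774723 to 27745008 counts, and 1 count was worth 0.0314 to 0.0538 CPM, which are counts scaled to a common library size. The sort markers were present throughout: the summed CPM of the 3 Cd3 genes was 1872 to 4104, and Foxp3 was 16.2 to 41.8 CPM in LN and 110.4 to 202 CPM in skin. Cd8a, a marker of the other main T cell lineage, was 4.12 to 15 CPM in LN and 0 to 1.65 CPM in skin. Rora, the targeted gene, was 1327 to 1509 CPM in untreated WT skin against 821 to 1198 in cKO, and 739 to 812 CPM in WT MC903 skin against 473 to 632 in cKO. The groups did not overlap, but neither difference passed the test (edgeR quasi-likelihood, log2 -0.43 ± 0.15, adjusted p = 0.25, and -0.57 ± 0.15, adjusted p = 0.19). Labelled cKO libraries thus kept reads over Rora, and no count per exon was used here.

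Together the 35 genes summed to between 777 CPM (WT MC903 replicate 2) and 3511 CPM (LN replicate 3). Classes differed in which libraries carried them, as the plot of summed CPM by group shows. Of the 35, 18 had reads in all 15 libraries, 10 had none in at least 1 LN library, and Krt15 and Mcpt4 had none in any LN library. A filter on low counts kept 33 for testing and dropped Pdgfra, a platelet-derived growth factor receptor of fibroblasts (0 to 1.55 CPM), and Itgax, the dendritic cell integrin CD11c (0 to 2.24 CPM).

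**Figure D1:**
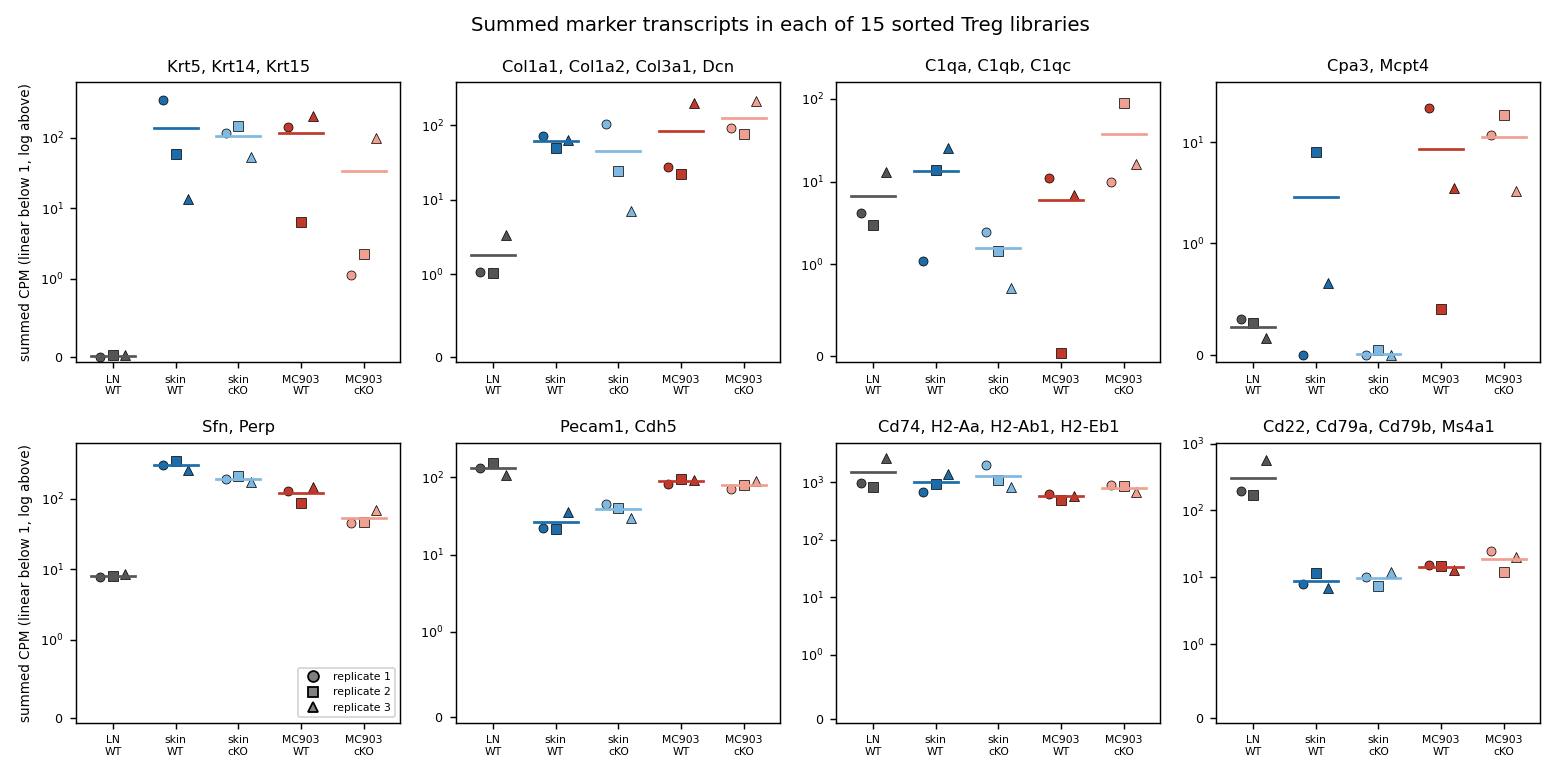
Summed CPM of 8 gene groups in each library, 1 panel a group titled with its genes: basal keratins, collagens with Dcn, C1q, mast cell proteases, Sfn with Perp, endothelial, MHC class II and B cell genes. Points are replicates, short lines are group means, and the vertical axis is linear below 1 and logarithmic above; basal keratins lie at 0 to 0.0317 CPM in LN and 1.12 to 341 in skin, whereas B cell genes lie at 171 to 568 in LN and 6.89 to 24.7 in skin.

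LN replicate 3 stood apart within its group. It was the highest of the 3 LN libraries for 26 of the 35 members, among them all 4 B cell genes (2.70 to 3.77 times the mean of the other LN libraries), all 4 MHC class II genes (2.81 to 3.46 times) and all 6 macrophage and monocyte genes, of which Lyz2, C1qb and C1qc were abundant enough for a ratio (3.32 to 5.60 times). Pecam1 and Krt10 were lower there, at 0.746 and 0.642 times, and Sfn was level at 1.07 times. The summed Cd3 genes were 2940.4 CPM in it, against 4090 and 4104 in replicates 1 and 2.

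Tissue separated the classes first. Between untreated WT skin and WT LN, 14 of the 33 tested members rose and 6 fell at an adjusted p under 0.05 by the quasi-likelihood test of edgeR (Benjamini-Hochberg adjusted), when 57.6% of all 13578 genes tested were called (28.8% in each direction). The median log2 difference of the members was 2.69, beside 0.00744 over all genes. All 4 tested fibroblast genes, 5 of 8 keratinocyte genes and 3 of 4 mast cell genes were higher in skin, and all 4 B cell genes were higher in LN. Of 6 macrophage and monocyte genes 1 rose, and of the 4 MHC class II genes none was called. Scaling by library totals alone moved the median of all genes by -0.35 on the log2 scale (by 0.13 for MC903 in WT skin) and the split of called genes from 3911 higher and 3913 lower to 2837 and 5321, but reversed no called member. Without LN replicate 3, 18 members were called. Tissue and digestion cannot be told apart in this comparison.

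The basal keratins were near absent from LN and very uneven in skin. Krt5 and Krt14, the keratin pair of the basal epidermal layer, and Krt15, a basal and hair follicle keratin, had 1, 1 and 0 counts over the 3 LN libraries. Krt5 was 60.1, 0.177 and 5.70 CPM in the 3 untreated WT skin libraries, 4.61, 26.2 and 8.16 in untreated cKO skin, 30.6, 1.78 and 32.6 in WT MC903 skin and 0.475, 0.242 and 16.8 in cKO MC903 skin. In the same order of libraries Krt14 was 92.4, 58.1 and 6.08, then 109, 107 and 20, then 66.8, 3.45 and 115, then 0.648, 1.99 and 73.9 CPM. Krt15 was 188, 1.64 and 1.88, then 4.44, 13.1 and 24.8, then 43.3, 1.23 and 58.7, then 0, 0 and 9.30 CPM. Every group of skin libraries but untreated cKO skin thus held both rich and poor ones. In untreated cKO skin the 3 keratins summed to 53.0 to 146 CPM. The rich library was not the same for each keratin: Krt15 was far above the others in WT skin replicate 1, where Krt14 was not the highest of the 12.

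Against LN, Krt14 was 4967-fold higher in untreated WT skin (95% interval 891 to 196229, adjusted p = 0.00772), Krt5 was 2029.5-fold higher (364 to 80219.6, adjusted p = 0.0135) and Krt15 at least 1987-fold higher (adjusted p = 0.0276). These ratios rest on 1 or 0 counts in LN, the intervals cover counting error only, and the bound takes 3 counts over the LN group. WT skin replicate 1 carried most of the Krt5 and Krt15 counts. Without it the Krt5 ratio was 244 (95% interval 43 to 9743, adjusted p = 0.0482), the Krt15 bound 53.3-fold (adjusted p = 0.116) and the Krt14 ratio 3172 (568 to 125358, adjusted p = 0.0176). The Krt5 call was lost without any 1 of the 3 LN libraries (adjusted p = 0.0538 to 0.0663), and the Krt15 call without any 1 LN library (0.0675 to 0.073) or with only the compared groups in the fit (0.0635). With limma-voom the calls of all 3 keratins were lost (0.209 for Krt5, 0.288 for Krt14 and 0.259 for Krt15).

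Other keratinocyte genes followed the basal keratins only in part. Sfn, which encodes the epithelial adaptor 14-3-3 sigma, was 7.42, 7.32 and 7.87 CPM in LN and 248, 306 and 217 CPM in untreated WT skin (log2 5.09 ± 0.20, adjusted p = 1.27e-11), with no overlap between the tissues. Perp, a desmosome-associated membrane protein of stratified epithelium, was 0.320, 0.602 and 0.784 CPM in LN and 50.7, 36.7 and 40.0 in untreated WT skin, and it rose by 6.20 ± 0.67 on the log2 scale (adjusted p = 3.72e-06). Over the 12 skin libraries Perp and Krt14 were both lowest in cKO MC903 replicate 1, at 8.38 and 0.648 CPM. Krt10, a keratin of the differentiated layers above the basal one, ran the other way between the tissues. It was 8.27, 9.04 and 5.55 CPM in LN and 1.56, 1.72 and 2.96 CPM in untreated WT skin, and fell by 1.87 on the log2 scale (SE 0.63, adjusted p = 0.0187). That call was lost without LN replicate 2 (adjusted p = 0.0528), WT skin replicate 1 (0.0634) or WT skin replicate 2 (0.0571). Krt1, the usual partner of Krt10, stayed at or under 1.32 CPM everywhere, and neither it (log2 0.76 ± 1.29, adjusted p = 0.629) nor Dsp, the desmosomal plaque protein desmoplakin (3.17 ± 1.49, adjusted p = 0.0793), was called by edgeR. Dsp passed with DESeq2 (0.0315), with limma-voom (0.0184) and without LN replicate 3 (0.0266).

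Among 17 tested further keratinocyte genes, 10 rose in untreated WT skin and none fell, beside 28.8% of all genes called in each direction. Genes of that list that are low in LN could pass the count filter through skin alone, so the count is no separate support for the members. The pair with the highest mean CPM was Krt17, a keratin of hair follicle and injured epidermis, which was not called (log2 2.06 ± 1.70, adjusted p = 0.318), and Jup, the junction protein plakoglobin, which was (3.91 ± 0.39, adjusted p = 5.45e-07). Jup was even between replicates, at 14.8 to 22.5 CPM in untreated WT skin against 0.675 to 2.10 in LN.

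Fibroblast transcripts rose in skin as a class. Dcn, which encodes decorin, was 0.0355, 0.0634 and 0.220 CPM in LN and 33.6, 18.5 and 25.4 in untreated WT skin, and Col3a1, a fibrillar collagen of loose dermis, was 0.0355, 0.159 and 0.0627 against 16.0, 8.04 and 14.6 CPM. Their log2 differences were 7.83 ± 1.75 (adjusted p = 0.00266) and 7.13 ± 1.54 (adjusted p = 0.00193). Col1a1 and Col1a2, the chains of type I collagen, differed by 3.59 ± 0.79 (adjusted p = 0.00152) and 4.05 ± 1.58 (adjusted p = 0.045). The Col1a2 call was lost without any 1 of the 6 libraries (adjusted p = 0.0525 to 0.134), with library totals alone (0.0549) and with no filter beyond 1 count (0.0714), and those of Dcn and Col3a1 with limma-voom (0.0677 and 0.0636). Without LN replicate 3 the differences of Dcn, Col1a1 and Col1a2 were 8.89, 4.21 and 5.35, and without LN replicate 2 that of Col3a1 was 7.87. In the remaining skin groups the class was patchy. The summed CPM of the 3 collagens and Dcn was 105, 24.7 and 7.03 in untreated cKO skin, 28, 22.1 and 203 in WT MC903 skin and 93.2, 75.6 and 211 in cKO MC903 skin, so replicate 3 was highest in both treated groups and lowest in the untreated cKO group. The further fibroblast list gave 10 of 14 tested genes higher and none lower, beside 28.8% of all genes called in each direction. Sparc, a collagen-binding matrix protein, was at log2 7.89 ± 1.47 (adjusted p = 0.000786) and Fn1, fibronectin, at 6.31 ± 0.97 (adjusted p = 5.71e-05). That list summed to 1.01 to 9.57 CPM in LN and 17.6 to 271 CPM in skin. Its genes could thus pass the count filter through skin alone, and their count is no separate support for the members.

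Both endothelial genes are known for the junctions between vessel cells, and they parted. Pecam1, which encodes the adhesion molecule CD31 that some leukocytes also carry, was 133, 155 and 107 CPM in LN and 22.1, 20.3 and 34.9 CPM in untreated WT skin, and fell by 2.36 on the log2 scale (SE 0.21, adjusted p = 1.74e-07). Cdh5, the cadherin of endothelial junctions, lay at 0 to 2.72 CPM over all libraries and was not called by edgeR (3.97 ± 1.92, adjusted p = 0.0869), although it passed with DESeq2 (0.0414) and without LN replicate 3 (0.0488). Of 13 further endothelial genes 3 rose in skin and none fell, beside 28.8% of all genes called in each direction. Prox1, a lymphatic endothelial transcription factor, was one of them (4.34 ± 0.75, adjusted p = 0.000153), and Plvap, a protein of vessel pores, just missed (adjusted p = 0.0532).

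Cd14, the monocyte co-receptor for bacterial lipopolysaccharide, was the only one of the 6 macrophage and monocyte genes called by tissue. It was 0, 0 and 0.157 CPM in LN and 2.93, 1.37 and 27.6 CPM in untreated WT skin (log2 7.48 ± 1.42, adjusted p = 0.000677), and the difference was 5.18 without WT skin replicate 3 and 11 without LN replicate 3. The 3 C1q genes, whose products start the classical complement pathway, had log2 differences of 0.88 to 1.06 with adjusted p of 0.484 to 0.584. Their summed CPM was 4.22, 3.01 and 13.1 in LN and 1.09, 13.9 and 25.3 in untreated WT skin, so the groups overlapped. Lyz2, lysozyme (log2 -0.47 ± 0.94, adjusted p = 0.688), and Csf1r, the macrophage growth factor receptor (adjusted p = 0.737), were not called either. Of 15 further myeloid genes 4 rose and 1 fell, beside 28.8% of all genes called in each direction. Cst3, the protease inhibitor cystatin C, rose by 1.15 ± 0.17 (adjusted p = 4.12e-05), and Cd68, a lysosomal protein of macrophages, by 1.39 ± 0.55 (adjusted p = 0.0401) with overlapping libraries.

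Cd207, the Langerhans cell lectin langerin, had 1 count in LN and 132 in untreated WT skin, a ratio of 194 (95% interval 34.2 to 7714, adjusted p = 0.011). WT skin replicate 3 held most of it, at 6.08 CPM against 0.425 and 0.442, and without that library the ratio was 39.7 (6.32 to 1651) and the adjusted p 0.0652. The 1 LN count was in replicate 3; without it the bound was 42.1-fold (adjusted p = 0.0319). In cKO and treated skin Cd207 ranged from 0 to 3.94 CPM. Of 10 further dendritic and Langerhans cell genes 4 rose and 1 fell, beside 28.8% of all genes called in each direction. Epcam, an adhesion molecule of epithelium and Langerhans cells, was 13.2 to 16.0 CPM in LN and 126 to 164 CPM in untreated WT skin (3.30 ± 0.17, adjusted p = 2.12e-10), and Zbtb46, a dendritic cell transcription factor, rose by 3.53 ± 0.38 (adjusted p = 1.37e-06).

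The MHC class II members were in every library of both tissues. H2-Aa, H2-Ab1 and H2-Eb1 encode chains of the peptide-presenting molecules, and Cd74 the invariant chain that guides them through the cell. H2-Aa was 99.4, 86.5 and 313 CPM in LN and 16.2, 40.1 and 128 in untreated WT skin, so the groups overlapped. It was 150.1, 69.5 and 17.6 in untreated cKO skin, 46.5, 15.9 and 29.4 in WT MC903 skin and 38.1, 69.7 and 44.6 in cKO MC903 skin. H2-Ab1 and H2-Eb1 shared its highest library in every group. LN replicate 3, WT skin replicate 3 and cKO skin replicate 1 held the most, with 931, 455 and 603 CPM summed over the 3 genes.

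The promoters of the members that moved together between libraries were therefore looked at. RefSeq promoters on GRCm38.p6 could be matched for 21 of the 35 genes, each from 250 bases before to 50 after the start of the gene (300 bases). The letters CTGATTGG, which hold the reversed CCAAT box of the class II Y box, were searched on both strands and were in 2 of the 21, H2-Aa and H2-Eb1, and in 4.1% of 32851 mouse promoters. The 120 bases that end at each start site are shown 5′ to 3′ on the gene's strand with the motif in capitals, 51 bases before the start in H2-Aa (chr17:34287824-34287943, minus strand) and 62 bases before it in H2-Eb1 (chr17:34305747-34305866, plus strand). A match of letters is a description of this window and not evidence of binding.
H2-Aa: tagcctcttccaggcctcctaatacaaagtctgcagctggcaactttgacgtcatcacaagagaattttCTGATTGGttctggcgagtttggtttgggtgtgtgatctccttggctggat
H2-Eb1: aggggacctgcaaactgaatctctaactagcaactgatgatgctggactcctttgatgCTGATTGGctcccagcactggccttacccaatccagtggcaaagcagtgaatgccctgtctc

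Cd74 overlapped between the tissues too. It was 665, 569 and 1734 CPM in LN and 613, 773 and 924 in untreated WT skin (log2 -0.36 ± 0.35, adjusted p = 0.397). Per summed CPM of H2-Aa, H2-Ab1 and H2-Eb1, it was 1.86 to 2.17 in LN and 2.03 to 10.7 in the 12 skin libraries, with a median of 4.30 there. H2-Aa (log2 -1.44 ± 0.87, adjusted p = 0.174), H2-Ab1 (adjusted p = 0.306) and H2-Eb1 (adjusted p = 0.302) were not called, although H2-Aa passed at 0.0403 without WT skin replicate 3.

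Partner genes of the pathway behaved otherwise. Of 7 further class II genes 6 fell from LN to untreated WT skin and none rose, beside 28.8% of all genes called in each direction. H2-DMa, a subunit of the peptide exchanger, went from 68.8 to 80.2 CPM in LN to 7 to 16.3 in untreated WT skin (log2 -2.80 ± 0.32, adjusted p = 2.35e-06), and H2-Ob, a subunit of its inhibitor typical of B cells, from 58.8 to 85.5 to 4.21 to 6.01 CPM (-3.79 ± 0.34, adjusted p = 1.72e-07). Ciita, the master activator of class II transcription, named after its values were seen, amounted to 2.53 to 4.20% of the summed H2 counts in LN and to 0 to 0.605% in the 12 skin libraries. The 2 ranges do not overlap, so a class II transcript in skin libraries came with less Ciita than one in LN libraries.

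Mast cell genes divided into proteases and other products. Hdc, the enzyme that makes histamine, was 0.533, 0.222 and 0.471 CPM in LN and 11.2, 11.8 and 10.7 CPM in untreated WT skin (log2 4.77 ± 0.31, adjusted p = 3.47e-09). Kit, the receptor for stem cell factor, was 1.85, 2.16 and 3.11 against 19.4, 8.22 and 25.3 CPM (2.89 ± 0.40, adjusted p = 1.83e-05). Both were present in each of the 12 skin libraries, Hdc at 7.62 to 31.7 CPM and Kit at 6.05 to 25.3.

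Cpa3 and Mcpt4, which encode the granule enzymes carboxypeptidase A3 and the chymase mMCP-4, were instead in some skin libraries and not in others. Cpa3 was 0, 4.60 and 0.377 CPM in untreated WT skin, 0 in all 3 untreated cKO libraries, 10, 0.408 and 2.49 in WT MC903 skin and 5.36, 11.7 and 1.76 in cKO MC903 skin. Mcpt4 was 0, 3.45 and 0.269, then 0, 0.0431 and 0, then 11.9, 0 and 1.01, then 6.40, 6.93 and 1.53 CPM. In skin the same libraries held both, apart from 11 counts of Cpa3 without Mcpt4 in WT MC903 replicate 2 and 1 count of Mcpt4 in cKO skin replicate 2. Hdc was even, so Hdc per summed protease CPM spanned 1.17 to 65.0 over the 8 skin libraries with at least 10 protease counts. By tissue Cpa3 was not called (2.69 ± 1.47, adjusted p = 0.135) except without WT skin replicate 1 (0.0459). Mcpt4, at 0 in LN, was at least 40.6-fold higher in untreated WT skin (adjusted p = 0.0315), a call lost without WT skin replicate 2 (at least 3.84-fold, 0.199) or any 1 LN library (0.0759 to 0.0797), with limma-voom (0.416) and with no filter beyond 1 count (0.051).

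Both protease promoters held a TATA box, TATAAA, searched in the same way; 4 of the 21 members had one (Col3a1, Cpa3, Krt10 and Mcpt4), beside 13.6% of all promoters. It stood 31 bases before the start in Cpa3 (chr3:20242182-20242301, minus strand) and 32 before it in Mcpt4 (chr14:56062311-56062430, minus strand), in capitals here. Such a match describes this window and is not evidence of binding. Why these genes occurred together was not tested. The Cpa3 promoter held a second match on the opposite strand, 242 bases before the start and outside the stretch shown.
Cpa3: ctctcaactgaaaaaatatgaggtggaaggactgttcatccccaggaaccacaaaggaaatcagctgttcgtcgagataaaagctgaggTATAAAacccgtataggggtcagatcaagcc
Mcpt4: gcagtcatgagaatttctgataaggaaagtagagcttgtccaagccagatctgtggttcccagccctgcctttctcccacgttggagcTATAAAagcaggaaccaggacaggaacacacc

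Of 7 further mast cell and basophil genes tested, 2 rose and 1 fell in untreated WT skin, beside 28.8% of all genes called in each direction. Slc18a2, the vesicle transporter that loads histamine, rose by 0.84 ± 0.24 (adjusted p = 0.00749) from 7.04 to 9.23 CPM in LN to 10.6 to 18.3. Cma1, a further mast cell chymase, was at 0 in LN and untreated cKO skin and at 0 to 3.58 CPM in untreated WT skin.

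B cell genes were an LN class. Cd79a, a signalling chain of the B cell receptor, was 75.5, 70.1 and 225 CPM in LN and 0.662 to 2.38 CPM in the 12 skin libraries, and fell by 6.68 on the log2 scale in untreated WT skin (SE 0.57, adjusted p = 2.22e-07). Ms4a1, the gene of CD20, was 35.2, 23.6 and 103 CPM in LN and at 0 in 9 of the 12 skin libraries, at least 1142-fold higher in LN than in untreated WT skin (adjusted p = 6.52e-05). Cd22, an inhibitory co-receptor of B cells, had 3681 counts in LN and 3 in untreated WT skin, a ratio of 836 (95% interval 286 to 4053, adjusted p = 3.04e-06). Without LN replicate 3 the Cd79a difference was -5.90, the Ms4a1 bound 604-fold and the Cd22 ratio 425 (145 to 2063). Without WT skin replicate 2 the Cd79a difference was -7.35, the Ms4a1 bound 728-fold and the Cd22 ratio 532 (182 to 2583), and the Ms4a1 bound was 755-fold without WT skin replicate 1. Without WT skin replicate 3 the Cd22 ratio was 1759.7 (316 to 69524). All 10 tested further B cell genes fell as well, beside 28.8% of all genes called in each direction. That list summed to 74.0 to 355 CPM in LN and 0.614 to 5.24 CPM in the 12 skin libraries. Its genes could thus pass the count filter through LN alone, and their count is no separate support for the members. Fcer2a, the low-affinity IgE receptor, differed by -7.36 ± 0.70 (adjusted p = 3.39e-07).

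Cd79b, the partner chain of Cd79a, kept a level in skin that its partner did not. It was 61.5, 58.2 and 162 CPM in LN, 7.18, 9.59 and 5.92 in untreated WT skin, 8.64, 5.30 and 8.83 in untreated cKO skin, 12.9, 11.5 and 10.8 in WT MC903 skin and 18.1, 9.69 and 14.2 in cKO MC903 skin. It still fell by 3.63 on the log2 scale from LN to untreated WT skin (SE 0.39, adjusted p = 1.29e-06), or by 2.96 without LN replicate 3. Counts of Cd79b per count of Cd79a were 0.718 to 0.830 in LN and 3.08 to 12.4 in skin, and Ms4a1 per Cd79a was 0.336 to 0.466 in LN and at most 0.167 in skin. The plot of these ratios shows that no skin library reached the composition of an LN library for either pair.

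**Figure D2:**
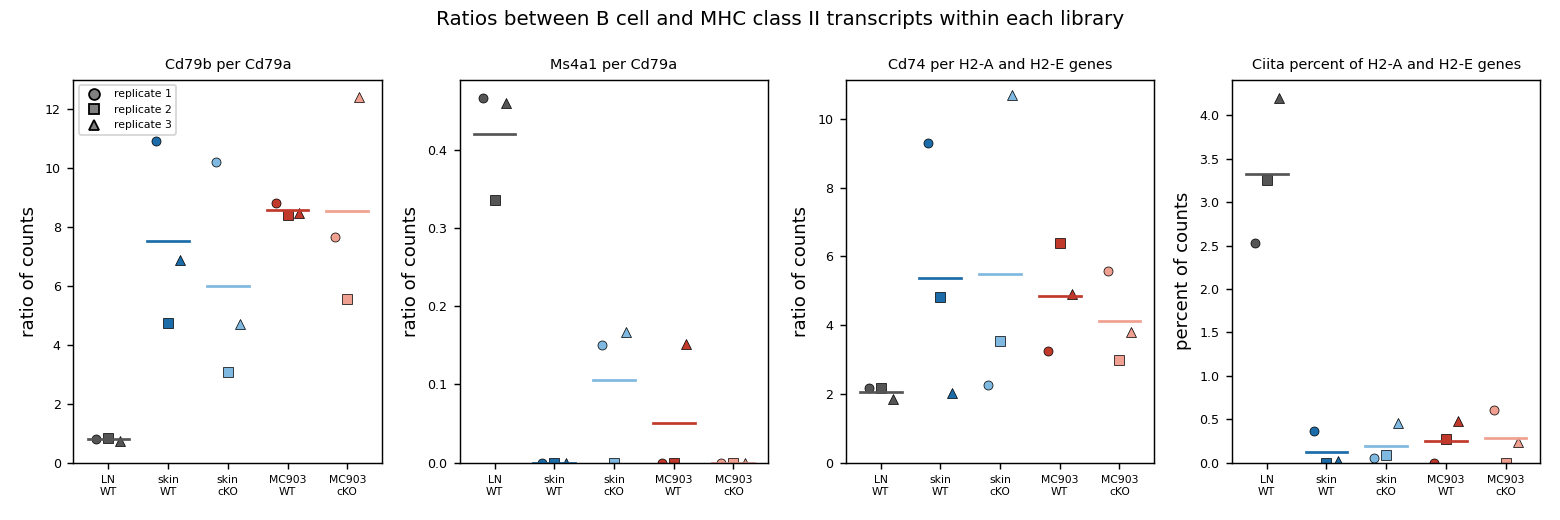
Ratios between members in each library, 1 panel a ratio: Cd79b per Cd79a, Ms4a1 per Cd79a, Cd74 per summed H2-Aa, H2-Ab1 and H2-Eb1, and Ciita as a percentage of the same sum. Points are replicates and short lines are group means. LN libraries lie at 0.718 to 0.830 for Cd79b per Cd79a and skin libraries at 3.08 to 12.4, whereas Ciita is 2.53 to 4.20% in LN and 0 to 0.605% in skin.

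MC903 moved few of the members, and by edgeR's test only Sfn, Pecam1 and Hdc were called in both genotypes. With DESeq2 Cd22 was a further member called in both (cKO log2 2.19, adjusted p = 0.0131). Treatment and body site cannot be told apart in these comparisons. In WT mice 3 of the 33 rose and 1 fell, when 10.5% of all genes were called (5.03% higher, 5.44% lower), with a median log2 difference of 0.178 for the members and 0.0107 for all genes. In cKO mice 4 rose and 1 fell (9 and 2 with DESeq2, 8 and 2 with only the compared groups in the fit), with 11.3% of all genes called (5.96% higher, 5.30% lower) and medians of 0.246 and -0.0103. Averaged over both genotypes 6 rose and 2 fell, with 25.1% of all genes called (12.8% higher, 12.3% lower). Library totals alone moved the split of all called genes from 683 higher and 738 lower to 1205 and 457 in WT, and from 1744 and 1668 to 2326 and 1259 for the average, without reversing a called member. Counting both directions, the shares of members called by edgeR with all 15 libraries in the fit thus lay near those of all genes. In cKO mice DESeq2 called 1115 genes higher and 1092 lower, and the fit of only the compared groups 789 and 834. In both of these alternatives the share of members called was larger than that of all genes. Without cKO skin replicate 2 or 3 the members called in cKO mice numbered 3, and without WT skin replicate 1, cKO skin replicate 2, WT MC903 replicate 1 or cKO MC903 replicate 1 those of the average numbered 5. Genes called in WT mice, 1421 of 13578, came to 946, 767 and 833 without WT skin replicate 2 or WT MC903 replicate 1 or 3, and those in cKO mice, 1529, to 645 to 980 without any 1 of its libraries but cKO skin replicate 1.

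Sfn fell in both genotypes. It went from 248, 306 and 217 CPM in untreated WT skin to 74.6, 71.0 and 101 with MC903, and from 130.2, 172 and 154 CPM in untreated cKO skin to 36.3, 32.3 and 42.2. The changes were -1.64 ± 0.17 (adjusted p = 3.9e-05) and -2.04 ± 0.17 on the log2 scale (adjusted p = 8.98e-06), and treated and untreated libraries did not overlap. No other keratinocyte member was called, and the class medians were 0.10 in WT and -1.36 in cKO. The summed basal keratins were 13.7 to 341 CPM in untreated and 6.46 to 206 CPM in treated WT skin, and 53.0 to 146 and 1.12 to 100 in cKO skin, so those groups overlapped. Within the further keratinocyte list Jup fell in cKO skin (-1.57 ± 0.35, adjusted p = 0.00946) and Lgals7, an epithelial galectin named after its values were seen, rose (1.41 ± 0.43, adjusted p = 0.0468). Of all genes 11.3% were called there. None of the 17 was called in WT, where 10.5% of all genes were.

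Pecam1 rose with MC903, from 22.1, 20.3 and 34.9 CPM to 82.2, 92.8 and 91.0 in WT skin and from 44.3, 40.1 and 29.4 to 71.1, 79.3 and 87.1 in cKO skin. Treated libraries were all above untreated ones and all below the LN libraries, which held 107 to 155 CPM. The log2 changes were 1.79 ± 0.21 (adjusted p = 0.00011) and 1.06 ± 0.20 (adjusted p = 0.00414). Cdh5 stayed at or under 2.72 CPM. Of the 13 further endothelial genes none was called in either genotype, beside 10.5% of all genes in WT and 11.3% in cKO.

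Hdc rose too, from 11.2, 11.8 and 10.7 CPM to 25.6, 26.5 and 23.9 in WT skin (log2 1.18 ± 0.24, adjusted p = 0.00698) and from 10.8, 7.89 and 7.62 to 20.1, 31.7 and 27.9 in cKO skin (1.60 ± 0.25, adjusted p = 0.00118). Kit ran the other way. It was 19.4, 8.22 and 25.3 CPM untreated and 7.85, 13.4 and 13.2 treated in WT skin, and 18.5, 18.3 and 10.8 against 6.05, 6.50 and 9.82 in cKO skin. It was not called by edgeR in either genotype, although in cKO it passed with DESeq2 (-1.10, adjusted p = 0.0401) and with only the compared groups in the fit (-1.09, 0.0412). It fell on average (-0.85 ± 0.27, adjusted p = 0.0278), a call lost with library totals alone (0.0535), kept without WT skin replicate 2, cKO skin replicate 3, WT MC903 replicate 2 or 3 or cKO MC903 replicate 3 and lost without any other of the 12 libraries (0.0545 to 0.0764). The plot of Sfn, Pecam1, Hdc and Kit shows how closely the replicates of the first 3 lay.

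**Figure D3:**
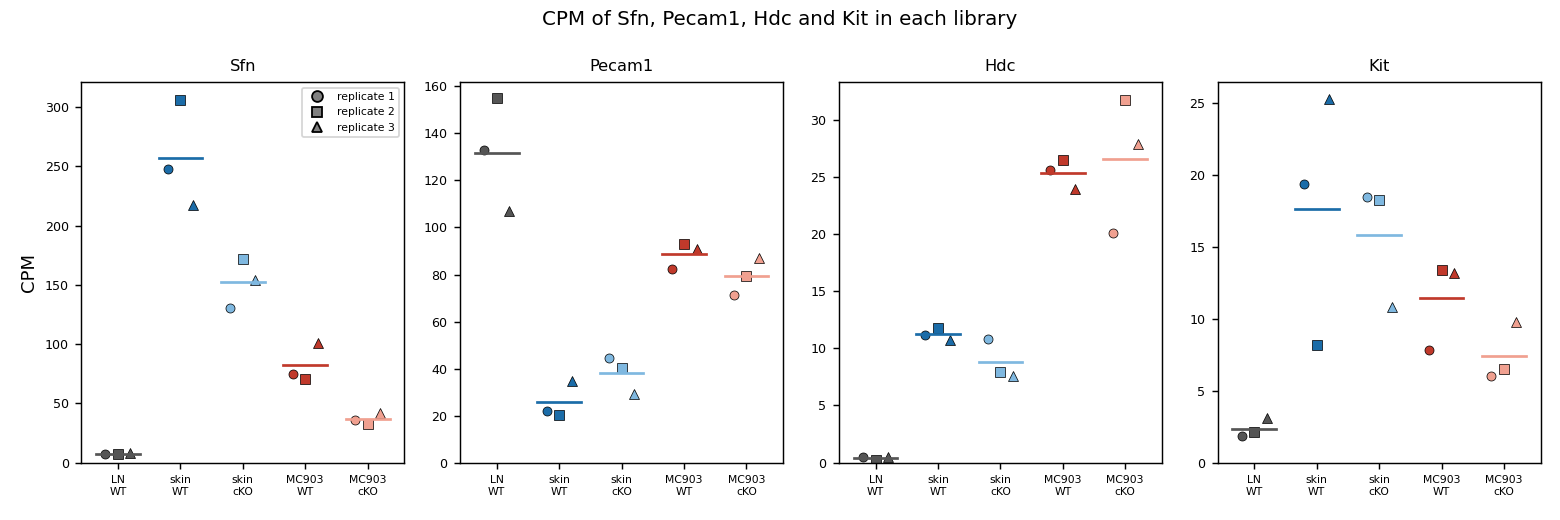
CPM of Sfn, Pecam1, Hdc and Kit in each library, 1 panel a gene, with each axis from 0. Points are replicates and short lines are group means. Sfn averaged 257 CPM in untreated WT skin and 82.2 after MC903, Pecam1 25.7 and 88.7, and Hdc 11.2 and 25.4, whereas untreated and treated WT libraries overlapped for Kit.

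Within a genotype edgeR called 1 mast cell protease. In cKO skin Cpa3 had no counts untreated and 402 with MC903, at least 149.9-fold higher (adjusted p = 0.0188), and this call was lost without cKO skin replicate 2 (0.0698) or replicate 3 (0.0713) and with limma-voom (0.107). Without cKO MC903 replicate 2 the bound was 88.1-fold, and without cKO skin replicate 3 it was 96.9-fold. Mcpt4 had 1 count against 323, a ratio of 361 (95% interval 64.4 to 14316), with an adjusted p of 0.0661. It was called with DESeq2 (0.0181) and with only the compared groups in the fit (0.00268). In WT skin the untreated replicate 2 held both, and neither was called. Averaged over genotypes Cpa3 (log2 5.82 ± 1.41, adjusted p = 0.0104) and Mcpt4 (4.91 ± 1.54, adjusted p = 0.0375) rose, the latter a call kept without WT skin replicate 2, WT MC903 replicate 2 or 3 or cKO MC903 replicate 3 and lost without any other library (0.0515 to 0.0993), with no filter beyond 1 count (0.0612), with the replicate block (0.0573), with limma-voom (0.159) and with only the compared groups (0.0525). Without WT skin replicate 2 the averages were 7.40 and 6.51, and without WT MC903 replicate 1 they were 5.04 and 3.36. Of the 7 further mast cell and basophil genes 3 rose on average, among them Cma1 (adjusted p = 0.042), beside 12.8% of all genes called higher. None rose in either genotype alone.

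C1qa rose with MC903 in cKO skin. It was 0.296, 0.215 and 0 CPM untreated and 1.99, 23.6 and 5.48 treated, a log2 change of 5.90 ± 1.67 (adjusted p = 0.0376). C1qb (4.38 ± 1.42, adjusted p = 0.0671) and C1qc (4.23 ± 1.49, adjusted p = 0.0875) were higher in each treated library but were not called by edgeR. Both passed with DESeq2 (0.012 and 0.0211) and with only the compared groups in the fit (0.0274 and 0.0481). The C1qa call was lost without any 1 of cKO skin replicates 1, 2 and 3 (adjusted p = 0.0634, 0.124 and 0.129) or cKO MC903 replicate 2 (0.123) or 3 (0.0549), with the replicate block (0.0806), with no filter beyond 1 count (0.0595) and with limma-voom (0.221). The change was 4.43 without cKO MC903 replicate 2. Csf1r passed in cKO skin with only the compared groups (adjusted p = 0.0482), Cd14 in WT skin (0.0392) and on average (0.00901) without WT skin replicate 3, and C1qc on average without WT MC903 replicate 2 (0.0494). In WT skin the summed C1q genes were 1.09, 13.9 and 25.3 CPM untreated and 11.1, 0.0371 and 6.84 treated. From the further myeloid list 4 of 15 rose in cKO skin, beside 5.96% of all genes called higher. They were Cd68 (1.96 ± 0.55, adjusted p = 0.0316), Mrc1, the mannose receptor (3.53 ± 1.04, adjusted p = 0.0385), Itgam, the integrin CD11b, and Ms4a7, the last 3 named after their values were seen. None of the 15 was called in WT, where 10.5% of all genes were, or for the difference in MC903 change between genotypes.

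Fibroblast, MHC class II and Langerhans members were not called by edgeR for MC903 in either genotype. Of 7 further class II genes 1 rose in WT, none was called in cKO and 2 rose on average. Of 10 further dendritic and Langerhans cell genes none was called in either genotype, and 1 rose and 2 fell on average. None of 14 further fibroblast genes was called. Of all genes, 5.03% were called higher in WT, and 12.8% higher and 12.3% lower on average. In cKO skin Col3a1 was higher in each treated library (10, 4.40 and 0.156 against 33.5, 18.3 and 84.5 CPM, log2 3.23 ± 1.09, adjusted p = 0.0809), and without cKO skin replicate 1 Col3a1 and Dcn passed (adjusted p = 0.0479 and 0.0315), as did Col3a1 with DESeq2 (0.0279). On average the pair also passed without that library (0.0396 and 0.0211), and Cd207 without cKO MC903 replicate 2 (log2 -5.08, adjusted p = 0.0227). Cd74 was lower in each treated WT library, 485, 430.1 and 478 against 613, 773 and 924 CPM, without passing (-0.73 ± 0.35, adjusted p = 0.219). With only the compared groups in the fit it passed in WT (-0.73, adjusted p = 0.0415) and on average (-0.68, adjusted p = 0.00534).

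Among B cell genes Cd22 was called in WT skin, at 0.0473, 0 and 0.108 CPM untreated and 0.748, 1.60 and 0.621 treated (79 against 3 counts, a ratio of 20.7 with a 95% interval of 6.82 to 102, adjusted p = 0.0248). The call was lost without WT skin replicate 1 (0.0816) or 2 (0.112) or WT MC903 replicate 2 (0.0794), with only the compared groups in the fit (0.0914) and with limma-voom (0.519). The ratio was 13.2 (4.35 to 65.2) without WT skin replicate 2 and 43.5 (7.59 to 1741) without WT skin replicate 3. Averaged over genotypes Cd22 (3.20 ± 0.65, adjusted p = 0.00279) and Cd79b (0.76 ± 0.25, adjusted p = 0.0395) rose, while Cd79a stayed at or under 2.38 CPM in every skin library and was not called. None of the 10 further B cell genes was called in either genotype, beside 10.5% of all genes in WT and 11.3% in cKO. The Cd79b call of the average was kept without WT skin replicate 2, cKO skin replicate 1 or cKO MC903 replicate 2 and lost without any other library (0.0542 to 0.0973), with no filter beyond 1 count (0.0506) and with limma-voom (0.109), and that of Cd22 was lost with limma-voom (0.246).

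**Figure D4:**
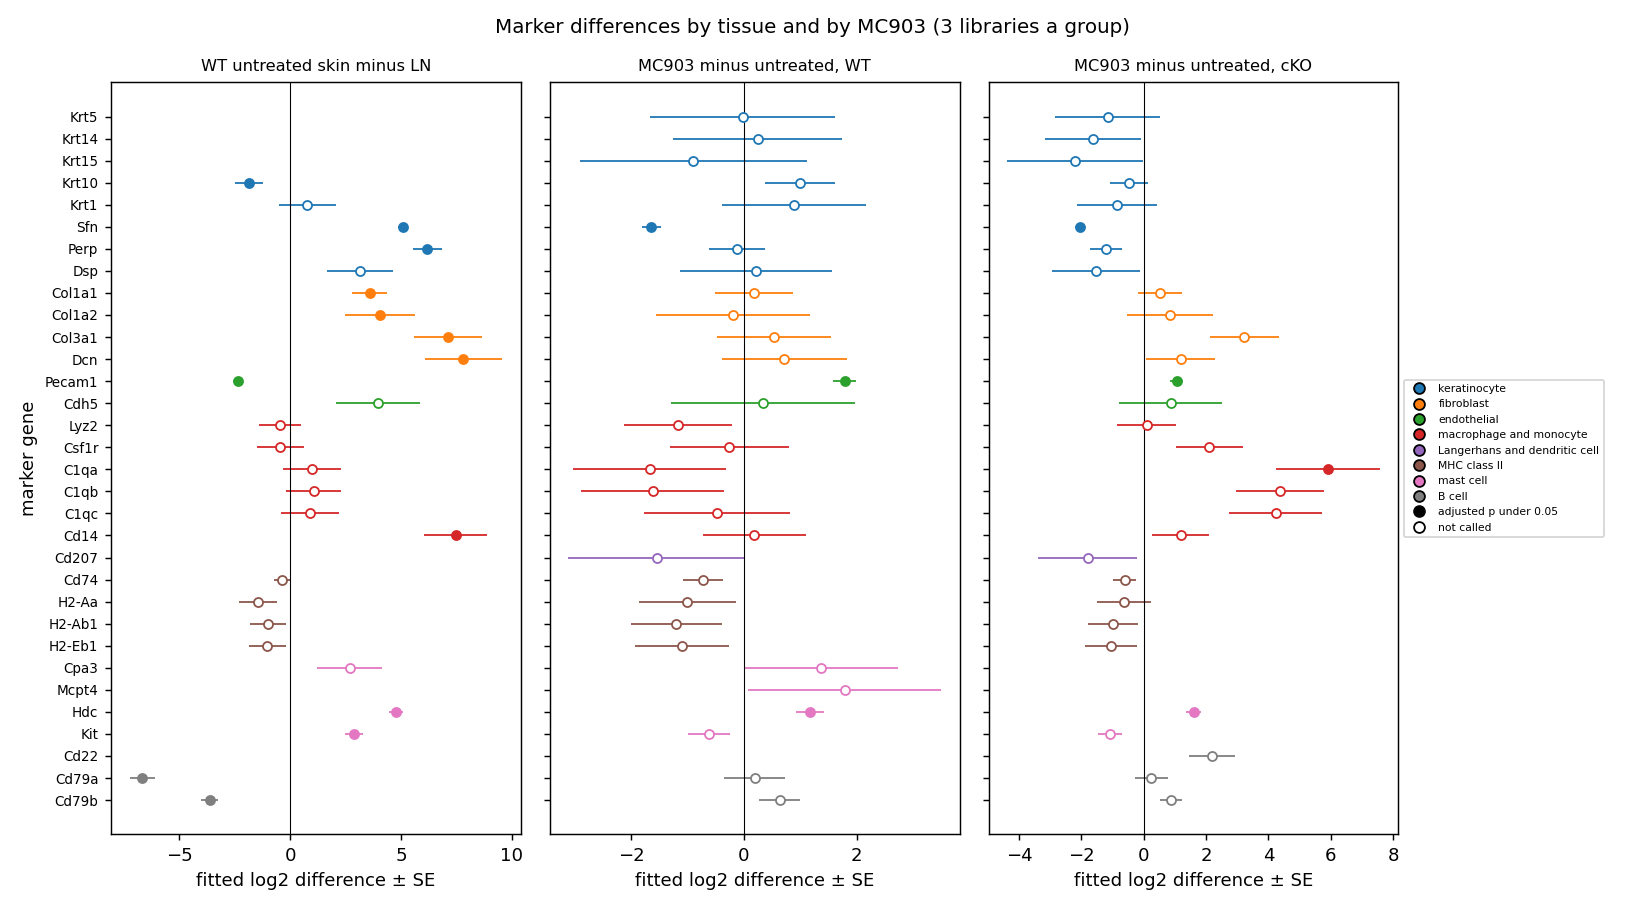
Log2 differences with standard errors for the members in 3 comparisons, 1 panel each: untreated WT skin against LN, and MC903 against untreated skin in WT and in cKO. Filled points passed at an adjusted p under 0.05; Pdgfra, Itgax and Ms4a1 are left out, as are genes with a group at or under 3 counts (Krt5, Krt14, Krt15, Cd207, Mcpt4 and Cd22 in the first panel, Cd22 in the second, Cpa3 and Mcpt4 in the third). Sfn lies at 5.09, -1.64 and -2.04 and Pecam1 at -2.36, 1.79 and 1.06.

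Sfn was the only member that edgeR called by genotype; with DESeq2, Cpa3 (at 0 in cKO, adjusted p = 0.00086) and Cd22 (adjusted p = 0.0208) were called too in untreated skin. Cpa3 had 111 counts in untreated WT skin and none in cKO (at least 43-fold higher in WT, or 4.25-fold without WT skin replicate 2), and Cd22 had 3 against 50 counts (14.3-fold higher in cKO, 95% interval 4.64 to 71.9). Sfn was 217 to 306 CPM in WT and 130.2 to 172 in cKO untreated skin, and 71.0 to 101 against 32.3 to 42.2 CPM with MC903. In untreated skin it fell in cKO (-0.76 ± 0.16, adjusted p = 0.0387), when 0.803% of all genes were called (0.398% higher, 0.405% lower), and in MC903 skin it also fell (-1.15 ± 0.17, adjusted p = 0.00341), when 0.258% were called (0.081% higher, 0.177% lower). The split of all called genes in MC903 skin was 11 higher and 24 lower, or 5 and 27 with library totals alone. The call in untreated skin was lost without WT skin replicate 1 (0.0657) or 2 (0.162) or cKO skin replicate 1, 2 or 3 (0.155, 0.0654 and 0.143), and with library totals alone, the replicate block, limma-voom or only the compared groups in the fit (0.0504, 0.0587, 0.0696 and 0.125). That in MC903 skin held without each of its libraries. Genes called by genotype, 109 and 35, came to 60, 67 and 62 without WT skin replicate 3 or cKO skin replicate 2 or 3, and to 22, 23 and 22 without WT MC903 replicate 2 or cKO MC903 replicate 2 or 3.

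No member passed edgeR's test of whether MC903 acted differently by genotype (the interaction), which called 0 of 13578 genes, with 765 genes (5.63%) and 5 members at an unadjusted p under 0.05 and 17 genes called by DESeq2. For Sfn the interaction was -0.40 ± 0.23 (adjusted p = 0.888). The 5 members were Pecam1 (-0.72 ± 0.29), C1qa (7.57 ± 2.13), C1qb (5.99 ± 1.89), C1qc (4.71 ± 1.95) and Cpa3, each with an adjusted p of 0.866.

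The members differed from each other in how alike replicates were. The within-group coefficient of variation, as the root mean square over the 5 groups, was 14.8% for Sfn, 19.1% for Pecam1, 22.6% for Hdc, 33% for Kit, 35% for Cd74 and 35.3% for Cd79b. At the other end it was 124% for Krt14, 126% for Ms4a1, 133% for Krt15, 137% for Krt5, 139% for Cd207 and 142% for Mcpt4. Groups with few counts enter these values with full weight. Krt5, Krt14 and Cd207 had 1 count each in LN, and Mcpt4 had 1 in untreated cKO skin. Ms4a1 had 11 counts in untreated cKO skin and 5 in WT MC903 skin. Over the skin groups alone the value was 1.08 for Krt14 and 1.26 for Krt5, as a fraction of the mean. Among the 11386 tested genes with a mean of at least 1 CPM the median was 19.5% and the 90th percentile 54.5%, and 23 of the 31 members at that level lay above the latter. Among all 13578 tested genes the 90th percentile was 102%, and 11 of the 33 tested members lay above it. Neither set of genes was matched to the members by level. Genes of 1 class lay at both ends: Sfn and Krt5 among keratinocyte genes, Hdc and Mcpt4 among mast cell genes. Sfn per summed basal keratin CPM ran from 0.423 to 32.3 over the skin libraries. Whether the even members were transcribed by the sorted Tregs was not tested.

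**Figure D5:**
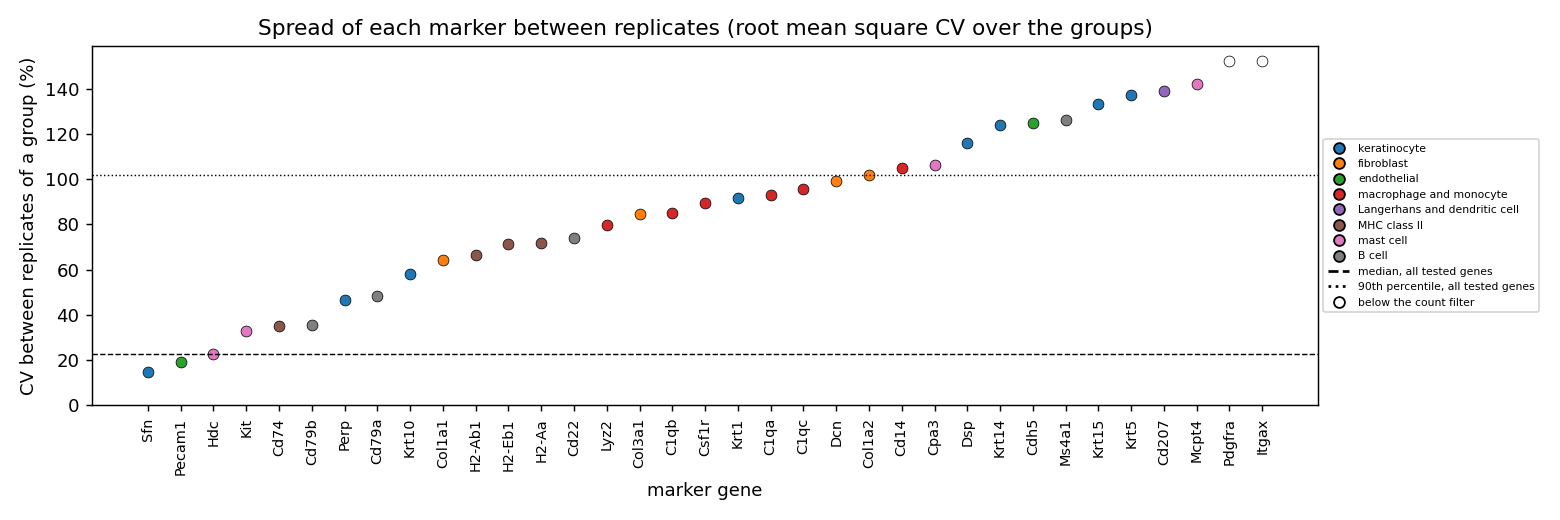
Coefficient of variation between replicates (percent, root mean square over the 5 groups) of each of the 35 genes, ordered from low to high and coloured by class, with the 2 untested genes as open points. Lines mark the median (22.8%) and the 90th percentile (102%) of all 13578 tested genes; Sfn, at 14.8%, and Pecam1, at 19.1%, lie below the median and Krt5, Krt14, Krt15 and Mcpt4 above the 90th percentile.

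The uneven classes did not all peak in the same library. The highest library for the summed basal keratins was WT skin replicate 1 (341 CPM), for the collagens with Dcn cKO MC903 replicate 3 (211), for C1q cKO MC903 replicate 2 (88.0), for the mast cell proteases WT MC903 replicate 1 (21.9) and for the H2 genes among skin libraries cKO skin replicate 1 (603). Some libraries were rich in more than 1 class. WT MC903 replicate 3 held 206 CPM of basal keratins and 203 of the collagens with Dcn, and cKO MC903 replicate 3 held 100 and 211. In cKO skin replicate 1 the basal keratins, the collagens with Dcn and the H2 genes were at 118, 105 and 603 CPM. Other libraries that led 1 class were poor in another. WT skin replicate 1 had 1.09 CPM of C1q and none of the proteases, and cKO MC903 replicate 2 had 2.23 CPM of basal keratins. WT MC903 replicate 2 lay in the lower part of the skin libraries for all 5 sums, with 6.46, 22.1, 0.0371, 0.408 and 67.4 CPM in the order given, and had the smallest total of the 35 genes.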

How the data were processed

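RNA of sorted Tregs was read as 75 bp single-end reads from SMART-Seq v4 libraries, per the labels' protocols. The submitters' processing notes name TopHat2 2.0.6, the mm9 build and DESeq2 (no version). The counting tool, annotation and use of strand are not given in the sources used here, so overlapping genes and close relatives may share reads. The authors deposited whole-number counts per gene for 15 libraries, mapped by title to 5 groups of 3. A deposited table of their LN against skin comparison was not used.

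The tools were edgeR 4.0.16, DESeq2 1.42.0 and limma 3.58.1 under R 4.3.3. Of 24015 genes, filterByExpr kept 13578. Libraries were scaled by TMM, and 1 model of the 5 group means was fitted to all 15. Contrasts were tested two-sided by edgeR's robust quasi-likelihood F test, and p-values were Benjamini-Hochberg adjusted across the 13578 (common dispersion 0.138, a biological coefficient of variation of 37.2%). CPM are per TMM-scaled library. Sums and ratios carry no test, and a ratio needed 10 counts in its denominator. For a group at 0 the fold is a bound from 3 counts over that group, and for 1 to 3 counts a ratio with a 95% exact interval. Both pool the libraries of a group, so they cover counting error only and not the spread between libraries. PCR copies were not told apart by molecular identifiers. The pipeline was tested on simulated data.

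Genes named were the 35 members, from each further list the 2 genes with the highest mean CPM, the sort markers and Rora; some of these are not reported here. Members and lists were chosen with earlier results of these data known, and 8 listed symbols were not matched. Alternatives were DESeq2, relative log expression factors, library totals alone, no filter beyond 1 count, at least 50 counts in 3 libraries, only the compared groups, limma-voom with sample weights, a block for the replicate number, and each library left out.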

Additional observations from a re-analysis of the deposited data

How the results depend on the processing

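No called member changed sign under the alternatives, while of those not called 6 of 13 did by tissue, 22 of 29 and 6 of 28 for MC903 in WT and cKO, 9 of 25 on average, and 16 of 32, 11 of 32 and 11 of 33 by genotype untreated, with MC903 and for the interaction. Near-even splits of all called genes tipped: beside library totals alone, DESeq2 gave 4256 higher and 3864 lower by tissue and 179 and 144 by genotype untreated (54 and 55 by edgeR). Of member calls, 11 of 20 by tissue, 3 of 4 and 3 of 5 by MC903 in WT and cKO, 4 of 8 on average, 0 of 1 by genotype untreated and 1 of 1 with MC903 held under every alternative that could be fitted. Leaving out each library gave 6633 to 7275 genes and 15 to 19 members called by tissue (7824 and 20 with all), 767 to 1410 and 3 to 5 for MC903 in WT (1421 and 4), 645 to 1895 and 3 to 6 in cKO (1529 and 5), 2682 to 3538 and 5 to 8 on average (3412 and 8), 60 to 133 and 0 to 1 by genotype untreated (109 and 1), 22 to 31 and 1 with MC903 (35 and 1), and 0 to 1 genes and 0 members for the interaction. With DESeq2, 11 members were called for MC903 in cKO, 323 genes and 3 members by genotype untreated, 140 genes with MC903 and 17 genes for the interaction. With limma-voom these were 2642 genes and 3 members for MC903 in cKO, 5 members on average, 0 members by genotype untreated and 104 genes with MC903. With only the compared groups they were 541 genes for MC903 in WT, 10 members in cKO and 0 by genotype untreated. Library totals alone gave 0 members by genotype untreated. An alternative chosen after seeing the data left out the 3 libraries with the most fibroblast transcripts (212, 205 and 105 CPM). It gave 758 genes for MC903 in WT, 54 and 13 by genotype untreated and with MC903, and 1 gene for the interaction, the member Dcn (adjusted p = 0.0417), which also passed by genotype untreated (0.0136) and for MC903 in cKO (0.00189), where Krt14 passed at 0.0429. The causes were not tested. Replicate numbers did not pair libraries (30 same-number pairs, r from -0.277 to 0.223, 3 over 0.1, and 5 of 15 libraries closest to their own number). The replicate block gave 7550 genes and 20 members by tissue, 1232 and 4 for MC903 in WT, 1325 and 4 in cKO, 3125 and 7 on average, 90 and 0 by genotype untreated, 34 and 1 with MC903 and 0 and 0 for the interaction. Depth limits members near 1 count, worth 0.0314 to 0.0538 CPM.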

Other observations

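Lists for cells that none of the 35 genes mark gave these values. By tissue, 28.8% of all genes were called in each direction. Of 9 tested genes of other skin cells (melanocytes, nerve, muscle and platelets among those listed) 5 rose and 1 fell from LN to untreated WT skin. Acta1, skeletal muscle actin, rose by 6.20 ± 1.11 on the log2 scale (edgeR quasi-likelihood, adjusted p = 0.000216). Mbp, known as a myelin protein and also transcribed in T cells, was 105 to 109.8 CPM in LN and 71.7 to 126 in untreated WT skin, and fell with MC903 in WT (-0.78 ± 0.18, adjusted p = 0.0121) and in cKO skin (-0.62 ± 0.18, adjusted p = 0.0356). Of 7 tested genes of other T cells and innate lymphoid cells 4 fell from LN to untreated WT skin and none rose. Cd8b1, a chain of the CD8 co-receptor, differed by -1.81 ± 0.27 (adjusted p = 3.06e-05). Neither list had a called gene for MC903 beyond Mbp and Pf4, a platelet chemokine named after its values were seen, which rose in cKO skin (5.10 ± 1.11, adjusted p = 0.0112). Of all genes, 10.5% were called for MC903 in WT and 11.3% in cKO.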
